A study of Mus musculus with 6 samples.

Results

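The genes of cholesterol and fatty acid synthesis were examined in germinal center (GC) B cells that carried or lacked HVEM, the receptor encoded by Tnfrsf14. The set was taken by name and held 36 genes of the mevalonate steps, the sterol steps, fatty acid synthesis and the SREBP system that controls them. Under those names 35 were among the 23337 genes of the deposited table, and 33 of the 35 had enough reads to be tested. The remaining name, Msmo1, was not in the table, but Sc4mol, an older symbol of that gene, was, and its values are given apart and counted in no total. No synthesis gene passed the test between genotypes. Hmgcs1 and Insig1 were higher and Scap was lower in Hvem-/- cells at an unadjusted p under 0.05, with no overlap between the samples of the genotypes, and none of these differences held after adjustment over all genes.

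Bulk RNA-seq was made from 3 WT and 3 Hvem-/- samples of GC B cells out of mixed bone marrow (BM) chimeras of C57BL/6 background. Donor cells were CD45.1/2 for WT by the labels (CD45.1 in the study's text) and CD45.2 for Hvem-/-, which lacks HVEM in every cell of the donor and not only in B cells. Chimeras had 8 weeks of reconstitution and received NP-CGG in alum, and GC B cells (B220+ GL7+ Fas+ cells with little IgD or CD38) were sorted at day 11, with 50000 cells in each sample. By the study's text, WT and Hvem-/- cells came from the same mixed chimeras, where they competed. The age of the animals at transplantation was not given for both donor lines in the sources used here. Which samples shared a mouse was not given either. As each genotype came from its own donor line, the effects of genotype and line cannot be told apart. In such bulk samples, fewer cells of a type and less RNA per cell cannot be told apart either.

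The samples held 2505918 to 3636163 reads in genes. Tnfrsf14 (chromosome 4, 154921933 to 154928563 in GRCm38) had read counts of 13, 11 and 17 in the WT samples (replicates 1, 3 and 5) against 0, 0 and 4 in the Hvem-/- samples (replicates 2, 4 and 6), in the direction of the labels (log2 fold change -3.04, SE 0.911, edgeR adjusted p = 0.178). All 12 GC B cell markers examined were detected and tested, among them Bcl6. At an unadjusted p under 0.05, edgeR placed 4 of the 12 lower in Hvem-/- (Cd79a, Cd79b, S1pr2 and Pax5) and 1 higher (Rgs13). Of all tested genes, 5.22% were lower and 6.72% higher at that p. T cell markers were also present: the 12 markers summed to 20.2 to 22.3 reads per 100000 in WT and 9.90 to 16.2 in Hvem-/-, and 4 of the 9 that could be tested were lower at an unadjusted p under 0.05 (Cd3e, Cd4, Cd28 and Cd2), against 5.22% of all tested genes. The log2 fold change of Lck was 0.19, the only one above 0 among the 9. The part of these marker differences in the results below was not tested.

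Cells build cholesterol from acetyl-CoA. The mevalonate steps make isoprenoid units, squalene is formed from them and closed into lanosterol, and the sterol steps turn lanosterol into cholesterol. Fatty acid synthesis draws on the same acetyl-CoA. Both are controlled by the SREBP transcription factors, which are made as membrane proteins of the endoplasmic reticulum. SCAP escorts them to the Golgi, where proteases release the active fragment, and when sterols are plentiful INSIG proteins hold SCAP back. Dividing GC B cells need membrane lipid, and activated lymphocytes are known to raise this program.

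The sequences just upstream of the genes that stood out are shown because SREBPs act through short sterol regulatory elements in the promoters of their targets, usually beside sites for NF-Y and Sp1. Capitals mark the sterol regulatory element core TCACNCCAC and the NF-Y box CCAAT, on either strand, and each run ends at the base before the first annotated start (RefSeq promoter windows, GRCm38.p6, plus strand, 5′ to 3′). They lie at chr13:119690101-119690350 for Hmgcs1, chr5:28071162-28071362 for Insig1 and chr9:110333038-110333287 for Scap.
Hmgcs1: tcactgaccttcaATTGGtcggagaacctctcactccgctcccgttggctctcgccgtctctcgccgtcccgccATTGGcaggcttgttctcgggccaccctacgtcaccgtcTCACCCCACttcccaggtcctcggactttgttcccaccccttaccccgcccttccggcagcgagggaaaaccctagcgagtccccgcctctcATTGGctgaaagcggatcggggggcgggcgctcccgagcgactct
Insig1: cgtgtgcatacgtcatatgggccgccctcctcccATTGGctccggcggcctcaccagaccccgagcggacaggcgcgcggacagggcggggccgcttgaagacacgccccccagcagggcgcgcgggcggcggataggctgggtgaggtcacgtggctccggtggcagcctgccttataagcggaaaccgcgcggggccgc
Scap: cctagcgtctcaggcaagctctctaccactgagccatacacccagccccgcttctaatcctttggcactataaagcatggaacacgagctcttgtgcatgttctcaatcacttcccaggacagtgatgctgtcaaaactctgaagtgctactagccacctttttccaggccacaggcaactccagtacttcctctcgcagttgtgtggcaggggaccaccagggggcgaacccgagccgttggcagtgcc

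Hmgcs1 had the core once, as TCACCCCAC, its first base 137 bases before the start, and the run shown has NF-Y boxes that begin 237, 176 and 45 bases before the start. Insig1 had a single NF-Y box and Scap had neither motif in these windows. Of the 35 synthesis genes in the table, 28 had a window, of 250 bases before to 50 after a start. The core was in the window of 1 of the 28 (Hmgcs1), against 1.44% of the 27025 genes with a window. The NF-Y box CCAAT was in 21 of the 28 and the Sp1 box GGGCGG also in 21 of the 28, against 41.1% and 38.2% of those genes. The motifs were searched on both strands, and none of them contains another. A match here is a run of letters and not a bound site, and a window without one says nothing about the factor.

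Levels of different genes were compared per kilobase, in CPM (reads scaled to the effective library size) per kilobase of the longest annotated transcript. In WT, Scd1, the stearoyl-CoA desaturase that makes monounsaturated fatty acids, had the highest level (56.5 ± 4.88 CPM per kilobase, SD, n = 3). Cyp51, which removes a methyl group from lanosterol, followed at 49.2 ± 4.48, and the WT samples of the 2 genes overlapped. Acly, which makes cytosolic acetyl-CoA from citrate, came next at 33.5 ± 4.24, and then the transcription factor Srebf2 at 25.6 ± 0.995. Sqle, which oxidises squalene, had 21.1 ± 1.32 and Hmgcs1 20.3 ± 1.81, and these neighbours did not differ beyond their spread. At the low end stood Fads2, the delta-6 desaturase (2.43 ± 0.694), and the kinase Mvk and decarboxylase Mvd of the mevalonate steps (1.49 ± 0.486 and 1.30 ± 1.001). The order depends on the length chosen: with the shortest coding transcript Scd1 stayed first and Srebf2 the fourth, while Cyp51 moved from place 2 to place 15.

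**Figure D1:**
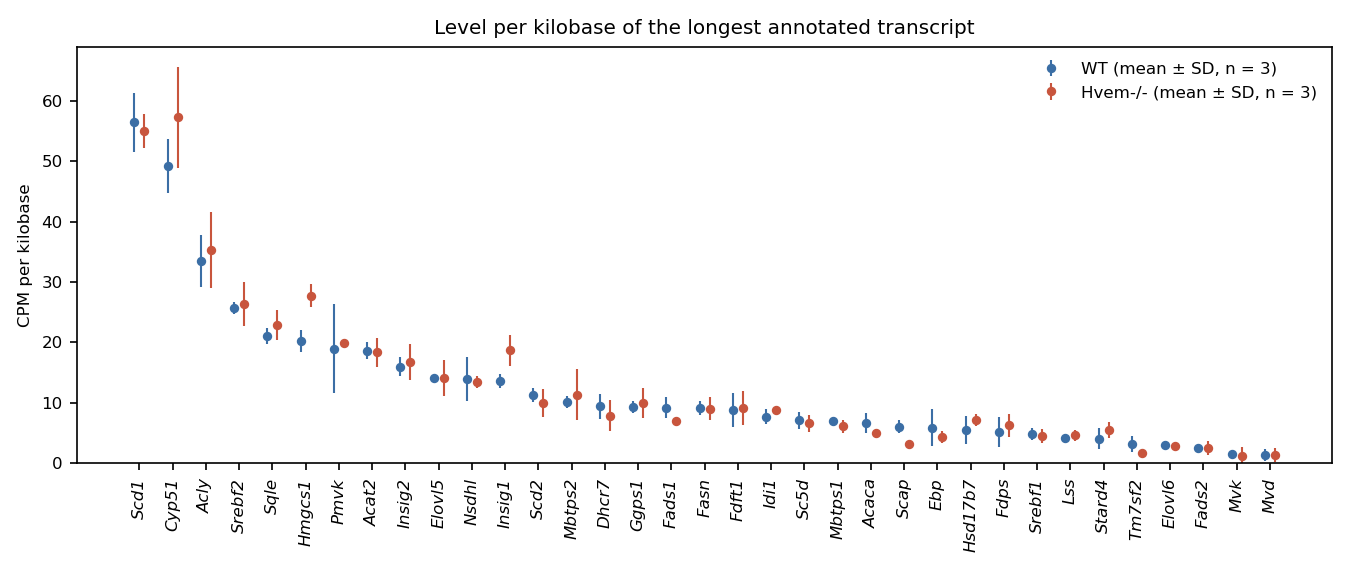
Level of each of the 35 synthesis genes in CPM per kilobase of the longest annotated transcript (vertical axis), for WT and Hvem-/- GC B cells, points and bars being mean ± SD of 3 samples. Scd1, Cyp51 and Acly lead in both genotypes and Mvk and Mvd are lowest, with most pairs of bars overlapping.

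Among related genes, Srebf2 was the more abundant SREBP gene. Per kilobase, Srebf1 stood at 0.231, 0.197 and 0.141 of Srebf2 in WT replicates 1, 3 and 5 and at 0.182, 0.192 and 0.134 in Hvem-/- replicates 2, 4 and 6. The Scd1 level was 5.07 ± 0.888 times that of Scd2 in WT and 5.72 ± 1.17 times in Hvem-/- (SD, n = 3 each). The handling of reads shared by these close paralogues is not stated, so this ratio is uncertain. Insig1 stood at 0.851, 0.861 and 0.838 of Insig2 in WT and at 1.31, 1.38 and 0.785 in Hvem-/-. Hvem-/- replicates 2 and 4 thus had more Insig1 than Insig2 and replicate 6 did not, so the genotypes overlapped in this ratio as in the others.

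Whether loss of HVEM moved the program was asked gene by gene, with edgeR's quasi-likelihood test over 9653 genes. Of the 33 tested synthesis genes, 0 passed an adjusted p of 0.01 upward and 0 downward, against 0.186% and 0.0311% of all genes tested. None passed at 0.05 either, and the lowest adjusted p was 0.201, of Scap. DESeq2 likewise called 0. At an unadjusted p under 0.05, edgeR placed 2 synthesis genes higher and 1 lower (6.72% and 5.22% of all tested genes), and DESeq2 gave the same counts. In 2 genes every Hvem-/- value lay above every WT value and in 1 below (8.74% and 8.09% of all tested genes). With 33 genes, these counts are near what the background shares give. Fold changes of 17 genes were above 0 and of 16 below, with a median log2 fold change of 0.01, against -0.01 over all tested genes, and a range of -0.94 to 0.46. The 95% intervals of 28 of the 33 lay within a 2-fold change either way, and those of 11 within a 1.5-fold change. Taken as one sum, the 35 genes made up between 179.6 reads per 100000 in Hvem-/- replicate 6 (95% exact binomial interval 174 to 185) and 187 in WT replicate 5 (183 to 192), and the genotypes overlapped.

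**Figure D2:**
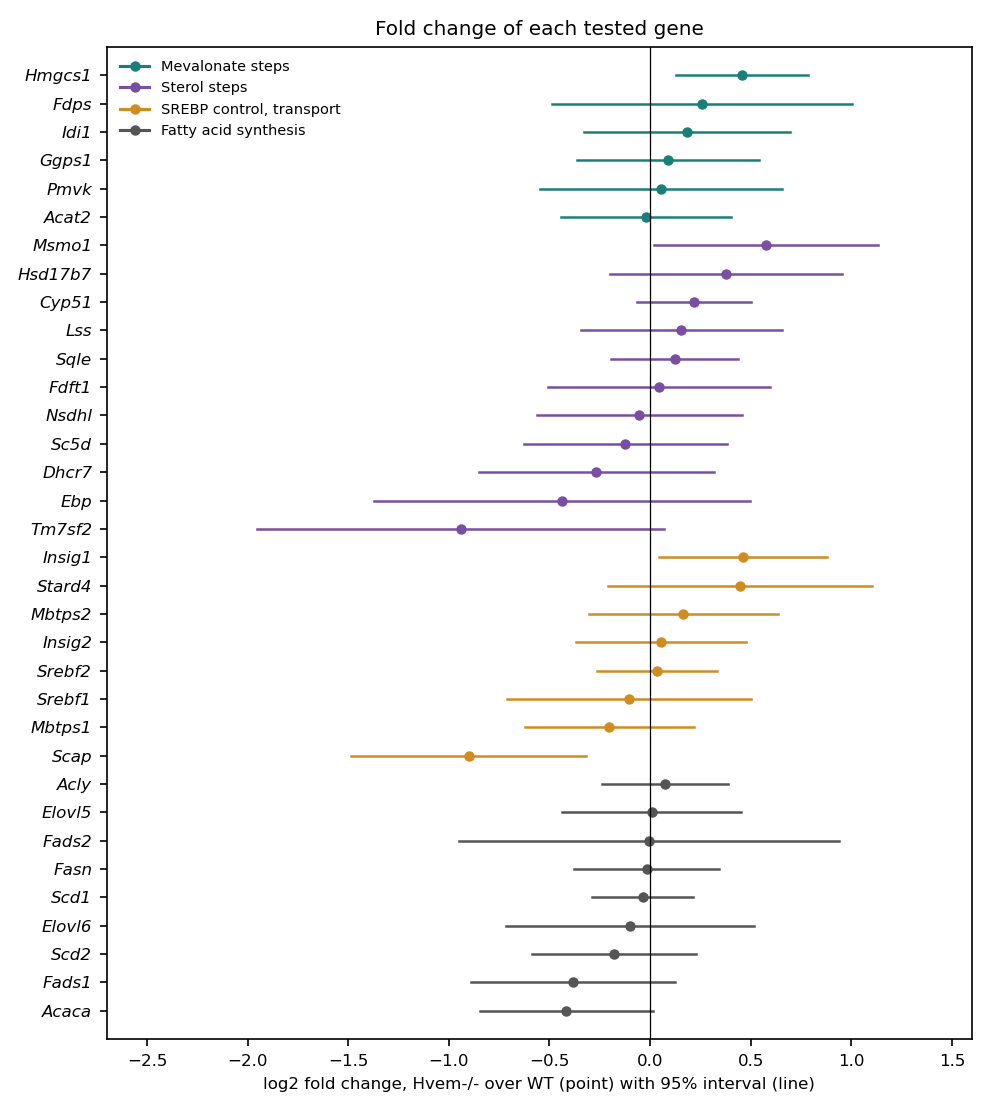
log2 fold change of Hvem-/- over WT for each tested synthesis gene (point) with its 95% interval (line), in edgeR's quasi-likelihood fit, coloured by role, with the Sc4mol row shown as Msmo1. The intervals of Hmgcs1, Insig1 and Msmo1 lie above 0 and that of Scap below 0, before any adjustment.

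In the mevalonate steps, 5 of the 6 tested genes had fold changes above 0 and none passed. Hmgcs1 had the smallest p of them. It encodes the cytosolic HMG-CoA synthase, which joins acetyl-CoA and acetoacetyl-CoA, and lies on chromosome 13 from 119690379 to 119708260. It had normalized counts of 194, 217 and 181 in WT replicates 1, 3 and 5 and of 262, 293 and 259 in Hvem-/- replicates 2, 4 and 6. All Hvem-/- values lay above all WT values. The log2 fold change was 0.46 (SE 0.157, 95% interval 0.13 to 0.79), a 1.37-fold higher value, with an edgeR adjusted p of 0.233. It stayed under an unadjusted p of 0.05 in each of the 6 fits that left out a sample. Hmgcs1 overlaps Gm48342 on the opposite strand.

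The other mevalonate genes overlapped between genotypes. Fdps, the farnesyl diphosphate synthase, had 43.0, 22.2 and 63.5 in WT and 55.7, 66.2 and 34.3 in Hvem-/- (normalized counts here and below, in the order of the replicates). The WT samples alone spanned nearly the whole range, and the log2 fold change was 0.26 (SE 0.358). Idi1, the isomerase of the isoprenoid unit, had 53.7, 69.9 and 73.2 in WT and 76.9, 72.4 and 75.7 in Hvem-/-, with a log2 fold change of 0.18 (SE 0.246). Ggps1, which makes geranylgeranyl diphosphate for protein prenylation, stood at 0.09, the kinase Pmvk at 0.06 and the thiolase Acat2 at -0.02. Ggps1 overlaps Arid4b on the opposite strand, and without strand its reads could not be separated from those of that gene. Mvk was counted 14, 8 and 10 times in WT but 4, 22 and 1 times in Hvem-/-, and Mvd 8, 1 and 15 against 5, 16 and 2 times. Both were below the filter on low counts and were not tested. Summed over the 8 genes, the mevalonate steps took 22.8, 21.3 and 22.7 reads per 100000 in WT and 24.2, 25.4 and 24.7 in Hvem-/-, without overlap. Without Hmgcs1 the sums were 13.6 to 16.1 in WT and 14.8 to 15.9 in Hvem-/-, and they overlapped.

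**Figure D3:**
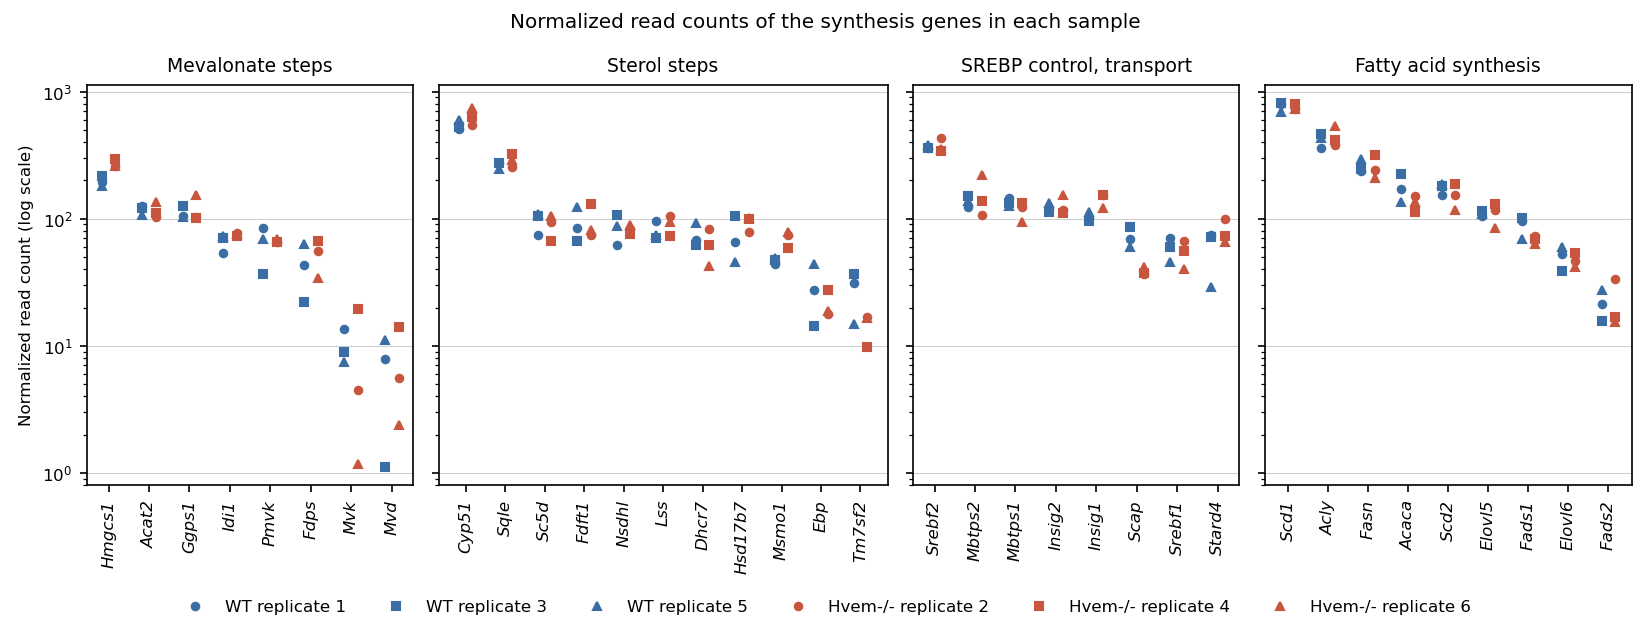
Normalized read counts (vertical axis, log scale) of the synthesis genes in each of the 3 WT and 3 Hvem-/- samples, by role, with the Sc4mol row shown as Msmo1. Red and blue points mix for most genes and separate for Hmgcs1, Insig1 and Msmo1 (Hvem-/- above) and for Scap (Hvem-/- below).

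In the sterol steps, 5 of the 10 tested genes had fold changes above 0 and 5 below, and their median log2 fold change was -0.00. Cyp51 was the most abundant of them and had 504, 530.4 and 597 in WT and 545, 627 and 737 in Hvem-/-. Its ranges overlapped, and the log2 fold change was 0.22 (SE 0.135, edgeR adjusted p = 0.561). Cyp51 overlaps Akap9 on the opposite strand, which applies to its reads as to those of Ggps1. Sqle, a rate-limiting enzyme of the later pathway, had 276, 274 and 245 in WT and 256, 321 and 289.7 in Hvem-/- (log2 fold change 0.12, SE 0.151). Its interval ran from -0.19 to 0.44. Hsd17b7, a ketoreductase of the sterol steps, had 65.4, 105 and 45.6 in WT and 78.0, 98.9 and 102 in Hvem-/- (0.38, SE 0.277). WT replicate 5 was the lowest sample, and without it the log2 fold change was 0.13, whereas without WT replicate 3, the highest, it was 0.75 and under an unadjusted p of 0.05 (edgeR adjusted p = 0.341).

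The row Sc4mol, which is Msmo1, the oxidase that removes the methyl groups at carbon C-4, had 43.9, 47.7 and 49.3 in WT and 74.6, 59.2 and 78.0 in Hvem-/-. The genotypes did not overlap, and the log2 fold change was 0.57 (SE 0.267, edgeR adjusted p = 0.397). It was under an unadjusted p of 0.05 in 1 of the 6 fits without a sample.

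The other genes of the sterol steps had fold changes on both sides of 0, and none passed. Tm7sf2, a sterol C-14 reductase, had 31.2, 36.6 and 14.9 in WT and 16.7, 9.71 and 16.6 in Hvem-/-. WT replicate 5 lay inside the Hvem-/- range, and the log2 fold change of -0.94 was the lowest of the set with a wide error (SE 0.485, edgeR adjusted p = 0.462). It rests on 20 to 33 reads per sample in WT and 11 to 15 in Hvem-/-. Ebp, the sterol isomerase, was at -0.44 (SE 0.448), Dhcr7, which makes the final reduction to cholesterol, at -0.27 (SE 0.280), and the desaturase Sc5d at -0.12 (SE 0.242). Lss, the cyclase that makes lanosterol, was at 0.15, Fdft1, the squalene synthase, at 0.04, and the dehydrogenase Nsdhl at -0.05. Lss and Fdft1 each overlap a gene on the opposite strand, 4930483K19Rik and Ctsb, and Tm7sf2 overlaps Vps51 on the same strand.

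In the control of SREBP, Insig1 was higher and Scap lower in Hvem-/-, each at an unadjusted p under 0.05 in edgeR. Insig1, on chromosome 5 from 28071363 to 28078662, is a retention protein and is itself a well-known SREBP target. It had 101, 96.5 and 112 in WT and 154, 154 and 121 in Hvem-/-. Each Hvem-/- value lay above each WT value, with replicate 6 closest to WT. The log2 fold change was 0.46 (SE 0.200, 95% interval 0.05 to 0.88, edgeR adjusted p = 0.353). Its p stayed under 0.05 in 2 of the 6 fits without a sample, those without WT replicate 5 and without Hvem-/- replicate 6.

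Scap, the escort of the SREBPs, lies on chromosome 9 from 110333288 to 110384950. It had 69.3, 86.6 and 59.7 in WT and 36.8, 37.1 and 41.4 in Hvem-/-. The Hvem-/- samples lay close together and below all WT samples. The log2 fold change was -0.90 (SE 0.280, 95% interval -1.49 to -0.32), a level 0.535 of that in WT, with an edgeR adjusted p of 0.201. Its p stayed under 0.05 in all 6 fits without a sample. Scap overlaps 5830462I19Rik on the opposite strand.

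The factors themselves and their other regulators overlapped between genotypes. Srebf2, which mainly drives the cholesterol genes, had 359, 358 and 381 in WT and 434, 343 and 354 in Hvem-/-. Its log2 fold change was 0.03 with an interval of -0.26 to 0.33. With the trends on GC content and length removed it was 0.29, under an unadjusted p of 0.05, with an edgeR adjusted p of 0.507. Srebf1, which mainly drives the fatty acid genes, had 70.3, 59.9 and 45.6 in WT and 66.8, 55.6 and 40.2 in Hvem-/- (-0.11, SE 0.291), and overlaps Rai1 on the opposite strand. The proteases that release the SREBPs, Mbtps1 and Mbtps2, stood at -0.20 and 0.17, and Insig2 at 0.06. Mbtps2 holds Yy2 on the same strand, and its value of 219 in Hvem-/- replicate 6 lay above the 107 to 149.8 of the other samples. Stard4, a carrier of sterols between membranes, had 74.2, 72.1 and 29.1 in WT and 99.1, 72.4 and 65.0 in Hvem-/- (0.45, SE 0.315, edgeR adjusted p = 0.610). WT replicate 5 was the low sample there, and without it the log2 fold change was 0.11. Over all omissions of a sample it ran from 0.11 to 0.67.

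In fatty acid synthesis, 2 of the 9 genes had fold changes above 0 and 7 below, with a median log2 fold change of -0.04. Summed over the 9 genes, this branch took 72.3, 77.6 and 73.8 reads per 100000 in WT. In Hvem-/- it took 68.8, 71.5 and 65.1, lower and without overlap. As summed normalized counts the genotypes overlapped (1993 to 2203 in WT and 1922 to 2098 in Hvem-/-). Acaca, the acetyl-CoA carboxylase that commits carbon to fatty acids, had 171, 226 and 136 in WT and 151, 112 and 136 in Hvem-/-. WT replicate 5 lay within the Hvem-/- range, and the log2 fold change was -0.42 (SE 0.207, edgeR adjusted p = 0.439). Fads1, the delta-5 desaturase, had 96.7, 102 and 69.5 in WT and 73.5, 68.9 and 62.7 in Hvem-/- (-0.38, SE 0.243, edgeR adjusted p = 0.567). The ranges overlapped at WT replicate 5.

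The core enzymes showed smaller differences. Fasn, the fatty acid synthase, had 236, 244 and 297 in WT and 242, 319 and 210.4 in Hvem-/-. Its log2 fold change was -0.02 with an interval of -0.38 to 0.34. Scd1 had 799, 817 and 689 in WT and 726, 796 and 728 in Hvem-/-. Its interval, -0.29 to 0.22 around -0.04, was the narrowest of the set. Acly had 358, 464 and 429 in WT and 379.8, 413 and 532 in Hvem-/- (0.08, SE 0.151). Scd2 was at -0.18, and the elongases Elovl6 and Elovl5 were at -0.10 and 0.01. Fads2 was at -0.00 with an interval of -0.95 to 0.94. Acaca overlaps Gm11437 on the opposite strand. Hvem-/- replicate 6 was the lowest sample for Fasn, Scd2, Elovl5, Fads1 and Fads2.

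Fold changes over all genes followed the GC content (share of G and C bases) of the transcript. The median log2 fold change went from 0.21 in the decile of tested genes with the lowest GC content to -0.26 in the decile with the highest. The synthesis genes lay on both sides of that trend: 18 of 33 were above the median of their own decile, and the median difference was 0.00. Scap has a GC content of 59.1%, in the highest decile, and lay 0.64 below its median. Hmgcs1 (43.1%) lay 0.32 above the median of its decile and Insig1 (48.2%) lay 0.43 above. With the trends on GC content and length removed, the log2 fold changes were -0.61 for Scap, 0.36 for Hmgcs1 and 0.49 for Insig1, and the lowest adjusted p in the set was 0.419, of Insig1.

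**Figure D4:**
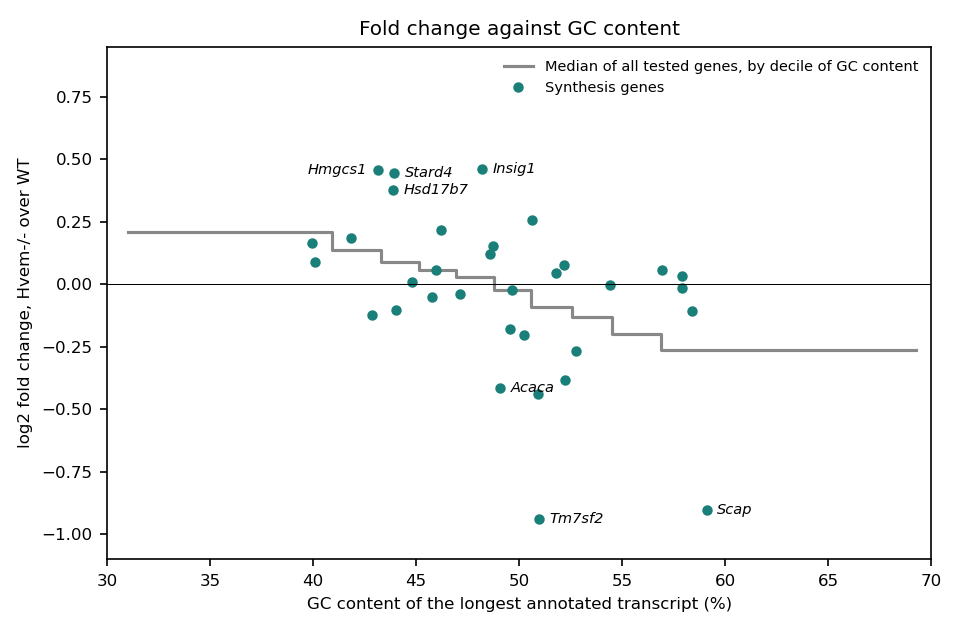
log2 fold change of Hvem-/- over WT of the 33 tested synthesis genes against the GC content of the longest annotated transcript, in percent, with the median of all tested genes in each decile of GC content as a line. The line descends from 0.21 to -0.26 while the synthesis genes fall on both sides of it, with Scap and Tm7sf2 furthest below.

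Other genes of the pathway, which were not in the set, did not pass either. Of 19 further synthesis genes and SREBP targets, 14 could be tested, with 0 past adjusted p under 0.01 in either direction and a median log2 fold change of -0.04. In 4 of the 14 every Hvem-/- value lay above every WT value, and in 0 below (8.74% and 8.09% of all tested genes). At an unadjusted p under 0.05, 3 were higher and 0 lower (6.72% and 5.22% of all tested genes). Of these, Lbr, a nuclear envelope protein and sterol C-14 reductase like Tm7sf2, had 1177, 1297 and 1323 in WT and 1479, 1483 and 1697 in Hvem-/- (0.29, SE 0.112, edgeR adjusted p = 0.302).

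Of 16 genes of sterol efflux, transport and storage, 9 could be tested, and none passed at adjusted p under 0.01 in edgeR. At an unadjusted p under 0.05 edgeR placed 4 of the 9 lower in Hvem-/- and 0 higher (5.22% and 6.72% of all tested genes), and 2 of the 9 had fold changes above 0. Their median log2 fold change was -0.44. Apoe, a lipoprotein component that accepts cholesterol, had 136, 136 and 172 in WT and 94.7, 103 and 65.0 in Hvem-/- (-0.76, SE 0.219, edgeR adjusted p = 0.162). Mylip, a ubiquitin ligase induced by sterols, had 151, 113 and 111 in WT and 110.3, 81.2 and 59.1 in Hvem-/- (-0.58, SE 0.242, edgeR adjusted p = 0.334). The other two were Npc2 and Npc1, which release cholesterol from lysosomes, both picked out with their values known, at -1.04 and -0.73. Hvem-/- replicate 6 was the lowest sample for all 4, and it was also the lowest in T cell markers. The 10 myeloid markers examined summed to 19.3 reads per 100000 in that sample. They summed to 26.4 and 13.6 in Hvem-/- replicates 2 and 4 and to 16.7 to 20.8 in WT. A link of the 4 genes to either kind of cell was not tested. Ch25h and Cyp7b1, which make oxysterols that guide B cells, had 0 reads in every sample.

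**Figure D5:**
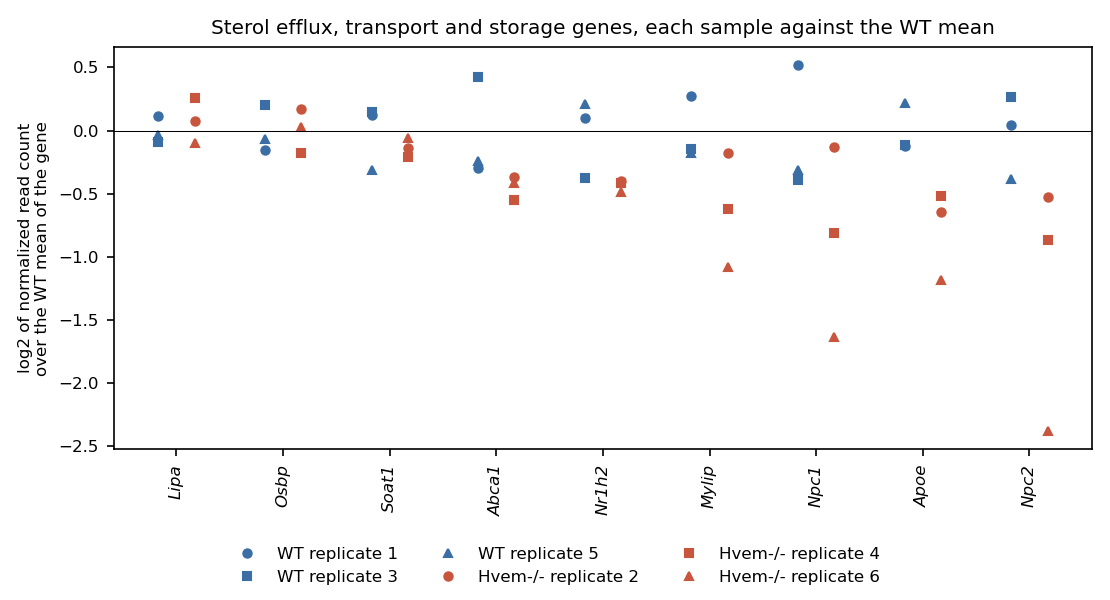
Normalized read count of each gene of sterol efflux, transport and storage in each sample over the WT mean of that gene, on a log2 scale, for 3 WT and 3 Hvem-/- samples. Apoe, Mylip, Npc2, Nr1h2 and Abca1 have all 3 Hvem-/- samples below the WT samples, while the ranges of Npc1, Soat1, Osbp and Lipa overlap. Of all tested genes, 8.09% have all 3 Hvem-/- values below. For Mylip the nearest samples almost touch (110.3 in Hvem-/- replicate 2 and 110.5 in WT replicate 5).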

How the data were processed

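RNA from sorted GC B cells was amplified (Nugen Ovation V2) and sequenced as 100 bp paired reads. The study aligned reads with STAR and ran DESeq2, with no version of either given in the sources used here. The submitters' processing notes name the build mm10 and, among tools, TopHat2 2.0.8b, Cufflinks 2.1.1 and CASAVA. The authors deposited, for each sample, a signal, each gene's reads over a DESeq2 size factor, called normalized counts here. Their deposited table also holds log2 fold changes, a Wald score and p-values of the authors' own comparison, none of which was used. All values (100%, relative tolerance 1e-06) were whole multiples of the smallest in their sample, so the reads were recovered and tested with edgeR 4.0.16 in R 4.3.3 with the quasi-likelihood test, after filterByExpr and TMM, in a model of genotype alone. P-values were adjusted by Benjamini-Hochberg over 9653 genes, with a threshold of 0.01. Means and SDs are of normalized counts or CPM per kilobase, and an SE is the log2 fold change divided by the root of its F statistic.

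Groups and replicate numbers came from the labels. No source states that samples of a genotype are separate mice, so a p-value measures spread between these samples only, which may be technical. The study's text places both genotypes in the same chimeras, but no label pairs the samples, so the main model left pairing out. Samples of a genotype differed beyond sampling noise (chi-square of 4.31 to 8.26 for each degree of freedom). Intervals on read shares cover counting error only. The genes and lists were chosen with earlier results of these data known. All 36 genes are named. Of every other list, those past the threshold and the 2 with the smallest p are named, except genes not reported here. Positions, lengths and GC content are from GENCODE vM21 on GRCm38. Symbols of the deposited table were matched to it directly for 20929 genes and through a synonym for 1916. Functions were tested on simulated data. The alternatives tried were DESeq2 1.42.0, limma 3.58.1 on log2(signal + 1), factors from upper quartiles, a looser and a stricter filter, adjusted p under 0.05, loess removal (span 0.5) of GC content and length trends, omission of each sample, a block for mouse in the 6 possible pairings, and the shortest coding transcript. Values of some other genes of the lists are not reported here.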

Additional observations from a re-analysis of the deposited data

How the results depend on the processing

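In every alternative run 0 synthesis genes passed at adjusted p under 0.01, while the calls over all genes ran from 1 higher and 2 lower (without WT replicate 1) to 67 and 17 (no filter on low counts), with 9 and 2 without the GC content and length trends and 46 and 6 in DESeq2, against 18 and 3. Scap, Hmgcs1 and Insig1 kept their direction throughout. At an unadjusted p under 0.05, the genes higher in Hvem-/- numbered 1 under pairings 3 and 4 of the mouse block and 3 without the GC content and length trends, where Srebf2 joined, and those lower numbered 2 with upper-quartile factors, with no filter and under pairing 2, since Acaca joined Scap. Leaving out a sample gave 1 to 2 higher (1 without WT replicate 1 or Hvem-/- replicate 4), 1 to 3 lower (2 without Hvem-/- replicate 2, 3 without WT replicate 5) and a median log2 fold change of -0.011 to 0.071. The true pairing is unknown because no label states which samples share a mouse, so the block was fitted under each of the 6 possible pairings.

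Some genes changed sign. Elovl5 went to -0.046 without the GC content and length trends, to -0.018 with upper-quartile factors, to -0.016 in limma, and under pairings 1 to 6 of the mouse block to -0.016, -0.0067, -0.016, -0.012, -0.0078 and -0.013. Fads2 went to 0.0056 in DESeq2 and 0.16 without the trends, where Fasn went to 0.24, Ggps1 to -0.10, Acat2 to 0.042, Mbtps2 to -0.036 and Srebf1 to 0.15. With one sample left out, the log2 fold changes ranged from -0.13 to 0.054 for Acat2, -0.073 to 0.17 for Acly, -0.74 to 0.035 for Ebp, -0.12 to 0.16 for Elovl5, -0.25 to 0.050 for Elovl6, -0.44 to 0.23 for Fads2, -0.20 to 0.11 for Fasn, -0.25 to 0.34 for Fdft1, -0.036 to 0.68 for Fdps, -0.13 to 0.20 for Ggps1, -0.095 to 0.15 for Insig2, -0.16 to 0.37 for Mbtps2, -0.24 to 0.13 for Nsdhl, -0.21 to 0.30 for Pmvk, -0.28 to 0.054 for Sc5d, -0.11 to 0.0075 for Scd1, -0.28 to 0.067 for Srebf1 and -0.082 to 0.10 for Srebf2. The causes were not tested. With the shortest coding transcript, 29 of 35 levels per kilobase moved by more than 1 SD.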

Other observations

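Products of the mevalonate steps also feed protein prenylation, dolichol and ubiquinone. All 15 genes of these branches were tested, and 0 passed at adjusted p under 0.01 in edgeR. An unadjusted p under 0.05 was reached by 1 gene upward and 0 downward (6.72% and 5.22% of all tested genes). Their median log2 fold change was 0.14, with 11 above 0 and 4 below, against 4753 above and 4900 below over all tested genes. Chm, an escort protein for Rab prenylation, had normalized counts of 126, 129 and 113 in WT and 160.4, 158 and 164 in Hvem-/- (log2 fold change 0.39, SE 0.183, edgeR adjusted p = 0.402). Pdss1, which makes the tail of ubiquinone, was at 0.48 (SE 0.277, edgeR adjusted p = 0.526).

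None of 17 fatty acid oxidation genes passed in edgeR at adjusted p under 0.01, and their median log2 fold change was -0.03. None reached an unadjusted p under 0.05 either, upward or downward (6.72% and 5.22% of all tested genes). Cpt1a, which brings fatty acids into mitochondria, had 623, 579 and 546 in WT and 433, 572 and 453 in Hvem-/- (-0.26, SE 0.136, edgeR adjusted p = 0.462), and Acadvl, a dehydrogenase of long-chain fatty acids, was at -0.44 (SE 0.269). The 9 tested genes of sterol-regulated protein degradation, which also acts on INSIG proteins, had a median of -0.09. In edgeR 0 were past either threshold, against the same shares of all tested genes. Vcp, the segregase of that machinery, was at -0.25 (SE 0.145) and its cofactor Ufd1l at -0.29 (SE 0.176). Among the GC B cell markers, Rgs13, a regulator of G protein signalling, was higher in Hvem-/- with 323, 507 and 420.4 in WT and 566, 729 and 989.6 in Hvem-/- (0.86, SE 0.178, edgeR adjusted p = 0.0283, above the threshold of 0.01). Cd79a, a chain of the B cell receptor, had 934, 675 and 833 in WT and 650.5, 683 and 461 in Hvem-/- (-0.45, SE 0.153, edgeR adjusted p = 0.233).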
